A study of Rattus norvegicus with 6 samples.

Results

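The Bcl2 family genes described here are 10 regulators of mitochondrial cell death and mitophagy, taken by symbol from a heart count table of 17487 symbols, with the rows of a symbol summed. They are Bcl2, Bcl2l1, Mcl1, Bax, Bak1, Bbc3, Bcl2l11, Bid, Bnip3 and Bnip3l, and all 10 were found. Libraries came from adult male Wistar rats, an outbred strain, with 1 library per animal. The doxorubicin group (n = 3) had received doxorubicin hydrochloride, an anthracycline anticancer drug that damages the heart, at 3.75 mg/kg by tail vein once a week for 4 weeks. The control group (n = 3) had received saline vehicle by the same route and schedule. The part of the heart, the day of collection after the last dose and the number of cells per sample were not stated in the labels.

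Proteins of this family decide whether the outer membrane of the mitochondrion is opened during apoptosis. Bax and Bak1 are the effectors that form the opening and let cytochrome c out. Bcl2, Bcl2l1 (Bcl-xL) and Mcl1 hold them in check. The BH3-only proteins Bbc3 (Puma), Bcl2l11 (Bim) and Bid relieve that restraint or act on the effectors directly, and Bnip3 and Bnip3l (Nix) are outer membrane receptors that hand mitochondria to autophagosomes. Cardiomyocytes are long-lived cells in which loss of Mcl1 or of Bcl2l1 is known to harm the heart, and Bax, Bbc3 and Bnip3 have each been studied in anthracycline injury.

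The transcripts of the 3 restraining genes among the 10 members were higher in each doxorubicin heart than in any control heart. The differences were small or rested on few counts, the Bcl2 groups overlapped with upper-quartile scaling, and no member passed the test. Outside the 10, the restraining relative Bcl2l2 overlapped between the groups, and the effector-like relative Bok was higher without overlap. On library totals of 2219685 to 3508282 counts, 7 of the 10 members held enough counts to be tested with edgeR's quasi-likelihood test, and Bcl2, Bcl2l1 and Bid did not. At a Benjamini-Hochberg adjusted p under 0.05, 0 of the 7 tested members were called by edgeR, against 5 of 9205 symbols tested (0.0543%). At an unadjusted p under 0.05 it was also 0 of 7, against 8.1% of all symbols tested, and DESeq2 called 0 of the 10 members and 0.721% of the symbols for which it gave an adjusted p. The median log2 fold change of the 7, doxorubicin minus control, was -0.09, and that of all tested symbols was 0.02. In simulated counts for this comparison, with 9101 genes in the fit, the test recovered 50.5% of genes changed by a factor of 2 and 96.9% of those changed by a factor of 4. Every simulated gene had the same spread between libraries and no library stood apart, so recovery in the real libraries may be lower. The simulation used only symbols past the count filter and so does not cover Bcl2, Bcl2l1 and Bid. Doxorubicin and control values did not overlap for 3 members, each higher in doxorubicin, and overlapped for the other 7. Of the 13050 symbols with any count, 5.87% were higher and 5.94% lower without overlap, and of those past the count filter 6.39% and 7.06%.

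**Figure D1:**
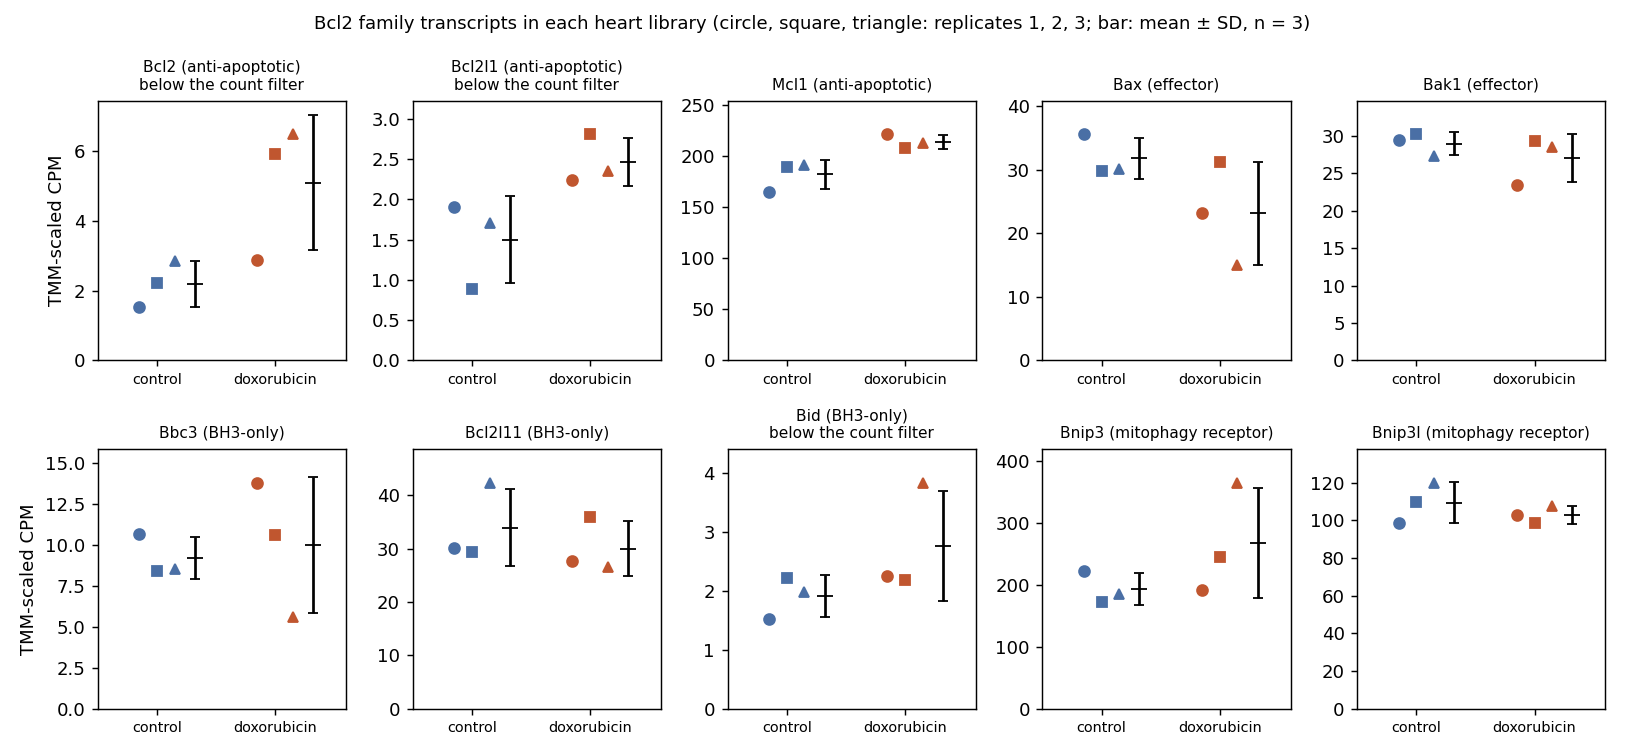
Level of each member in every library, in CPM, the count scaled to a common library total (y axis, from 0), for 3 control (blue) and 3 doxorubicin (orange) hearts, with the mean and SD of each group. The orange points lie above all blue points for Bcl2 (not with upper-quartile scaling), Bcl2l1 and Mcl1, and doxorubicin library 3 is highest for Bnip3 and lowest for Bax.

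Control library 1 stood apart from the other 5 on the first principal component. The tissue was checked against marker lists. All 11 cardiomyocyte markers in the table were detected, and their summed level was 139696 to 166292 CPM in control and 113802 to 130025 CPM in doxorubicin, with Actc1 and Mb the most abundant. The 11 macrophage markers, led by Lyz2 and C1qc, summed to 270 to 286 CPM in control and 325 to 536 CPM in doxorubicin. Neutrophil markers, led by S100a9 and Csf3r, summed to 1.33 to 4.58 CPM and 4.81 to 25.6 CPM, with Mpo and Ltf listed at 0. A level of 3 counts was 0.852 to 1.33 CPM, so the narrow gap between the neutrophil sums rests on few counts. The groups overlapped for endothelial, fibroblast, smooth muscle, lymphocyte, erythroid and atrial markers, and Alas2 was listed at 0. Single libraries stood apart within that overlap: summed atrial markers were 3286 CPM in doxorubicin library 1 and 187 to 918 CPM in the others, and summed erythroid markers were 7434 CPM in control library 1, 701 CPM in doxorubicin library 1 and 2040 to 2735 CPM in the others. In whole tissue, fewer cells of a type and less RNA per cell cannot be told apart, and the part of these shifts in the levels of the Bcl2 family members was not tested.

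Mcl1, a short-lived restraining protein, had the most reads of the 3 restraining genes and the smallest SD relative to its mean. Its level was 165, 189 and 191 CPM in the control hearts and 221, 208 and 212 CPM in the doxorubicin hearts, where CPM is the count scaled to the usual common library total by trimmed mean of M-values (TMM). Values given for single hearts stand in the order of replicates 1, 2 and 3. Every doxorubicin heart lay above every control heart. The means were 182 ± 14.6 and 214 ± 6.63 CPM (SD, n = 3), and the log2 fold change was 0.23 (SE 0.17, edgeR adjusted p 0.761). The difference was larger than the SD of either group but not past the test.

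Bcl2, the founding restraining gene of the family, rested on few reads. It was counted 4, 5 and 10 times in the control hearts and 9, 19 and 22 times in the doxorubicin hearts, or 1.53, 2.22 and 2.84 CPM against 2.89, 5.93 and 6.48 CPM. The groups were separated only by the narrow gap between control library 3 and doxorubicin library 1, and they overlapped when upper-quartile factors replaced TMM. The pooled counts, 19 against 50, gave a ratio of 2.27 with an exact 95% interval of 1.32 to 4.08, which covers counting error only and not the spread between animals. In an edgeR fit without the count filter the log2 fold change was 1.18 (SE 0.55), with an unadjusted p of 0.0375 and an adjusted p of 0.606. The unadjusted p was 0.0773 with DESeq2. In edgeR it was 0.103 without control library 1, 0.0665 without control library 2, 0.0966 without doxorubicin library 2 and 0.129 without doxorubicin library 3. It stayed under 0.05 without control library 3 (0.0394) or doxorubicin library 1 (0.0159). Of all 13050 symbols in the edgeR fit without the filter on all 6 libraries, 4.03% were higher at an unadjusted p under 0.05. Bcl2 is abundant in lymphocytes, whose 9 summed markers were 24.1 to 30.2 CPM in control and 22.4 to 29.0 CPM in doxorubicin, and their part in the Bcl2 level was not tested.

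Bcl2l1, which encodes the restraining protein Bcl-xL, had 5, 2 and 6 counts in control and 7, 9 and 8 counts in the doxorubicin hearts. Those counts correspond to 1.91, 0.889 and 1.70 CPM in control and 2.25, 2.81 and 2.36 CPM in doxorubicin. The groups did not overlap, yet the ratio of pooled counts, 13 against 24, was 1.59 with an exact 95% interval of 0.780 to 3.41, so the difference lay within counting error. Without the filter its log2 fold change was 0.68 (SE 0.69, edgeR adjusted p 0.825). Bcl2l1 stood on 4 rows of the table, with total counts of 6, 0, 31 and 0. The 599 symbols on several rows had a median total of 1 count over the 6 libraries, against 97 for the 16888 symbols on 1 row, and 48.6% against 24.6% of them were listed at 0. The counted level of Bcl2l1 may be incomplete, and how reads shared by its rows were treated is not given in the sources used here. Among the 737 symbols with a total count in the range of Bcl2, Bcl2l1 and Bid, 7.33% were higher in every doxorubicin library.

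The 250 bases before the annotated starts of these 3 genes and of Bnip3, the member with the smallest p among those tested, are shown because these members separated the groups or had that p. They are RefSeq sequences of the assembly GRCr8, which is not the build named for the deposited counts, and 7 of the 10 members had an entry; for Bcl2l1, with 4 entries, the start farthest upstream was used. Bcl2 is at chr13:23366901-23367150 on the minus strand, Bcl2l1 at chr3:161764776-161765025 on the minus strand, Mcl1 at chr2:185907918-185908167 on the plus strand and Bnip3 at chr1:203154963-203155212 on the minus strand. Capitals mark ACGTG on either strand, the core bound by hypoxia-inducible factors, in Bcl2, Bcl2l1 and Bnip3, and in Mcl1 they mark TGACG on either strand, the core of the cyclic AMP response element.
Bcl2: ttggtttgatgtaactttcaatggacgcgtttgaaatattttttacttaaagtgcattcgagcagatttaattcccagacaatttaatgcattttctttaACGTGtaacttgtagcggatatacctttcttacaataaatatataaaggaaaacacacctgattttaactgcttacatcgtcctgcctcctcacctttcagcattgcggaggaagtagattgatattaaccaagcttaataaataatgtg
Bcl2l1: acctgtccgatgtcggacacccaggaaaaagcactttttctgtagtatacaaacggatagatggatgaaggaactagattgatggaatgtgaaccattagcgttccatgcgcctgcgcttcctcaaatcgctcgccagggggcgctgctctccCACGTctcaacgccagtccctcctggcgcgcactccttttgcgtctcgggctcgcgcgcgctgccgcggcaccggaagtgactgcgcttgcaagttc
Mcl1: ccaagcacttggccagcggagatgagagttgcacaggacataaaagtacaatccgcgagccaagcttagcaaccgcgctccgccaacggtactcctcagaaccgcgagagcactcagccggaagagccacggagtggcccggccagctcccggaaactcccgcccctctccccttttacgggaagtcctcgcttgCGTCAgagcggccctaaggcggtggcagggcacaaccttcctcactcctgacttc
Bnip3: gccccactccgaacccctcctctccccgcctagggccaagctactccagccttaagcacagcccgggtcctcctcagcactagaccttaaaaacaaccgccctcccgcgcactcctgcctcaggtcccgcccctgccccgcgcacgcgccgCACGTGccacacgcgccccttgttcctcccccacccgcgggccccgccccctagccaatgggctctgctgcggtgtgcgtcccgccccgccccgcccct

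ACGTG stood in 3 of the 7 member windows and in 16.6% of the 33469 windows of that length in the table. In Bnip3, a known target of hypoxia-inducible factor, the match begins 99 bases before the start and is a CACGTG palindrome, so that both strands match and the same letters are an E-box, found in 5.59% of windows. The matches in Bcl2 and Bcl2l1 begin 150 and 97 bases before the start. The Mcl1 window held TGACG, which stood in 18.2% of windows, 55 bases before the start, and held no ACGTG. The window of Bcl2l11, a known FoxO target, held the FoxO site GTAAACA 204 bases before the start, a motif in 3.21% of windows. By base composition the windows differed widely: 33.6% of the bases were G or C in Bcl2, 57.6% in Bcl2l1, 62.0% in Mcl1 and 72.4% in Bnip3, against a median of 51.2% over all windows. Also searched on both strands were the GC box GGGCGG, in 30.5% of windows and in Bak1, Mcl1, Bnip3, Bcl2l11 and Bid, the CCAAT box, in 34.0% and in Bnip3 and Bcl2l11, and the TATA box TATAAA, in 12.9% and in Bcl2. The STAT motif TTCNNNGAA and the p53 decamer, in 7.67% and 6.64% of windows, were matched in 0 of the 7. Bax, Bbc3 and Bnip3l had no entry, so no motif was searched in them. A match describes letters only.

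Both effectors overlapped between the groups. Bax was 35.5, 29.8 and 30.1 CPM in the control hearts and 23.1, 31.2 and 15.03 CPM in the doxorubicin hearts. Doxorubicin libraries 1 and 3 were below all controls, and doxorubicin library 2 was among them. The log2 fold change was -0.46 (SE 0.27, edgeR adjusted p 0.694), and it was -0.22 without doxorubicin library 3 and -0.73 without doxorubicin library 2. Bak1, the second effector, was 27.3 to 30.2 CPM in control and 23.4, 29.3 and 28.6 CPM in the doxorubicin hearts, with a log2 fold change of -0.09 (SE 0.22, edgeR adjusted p 0.943). Its doxorubicin values were inside the control range except in library 1.

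**Figure D2:**
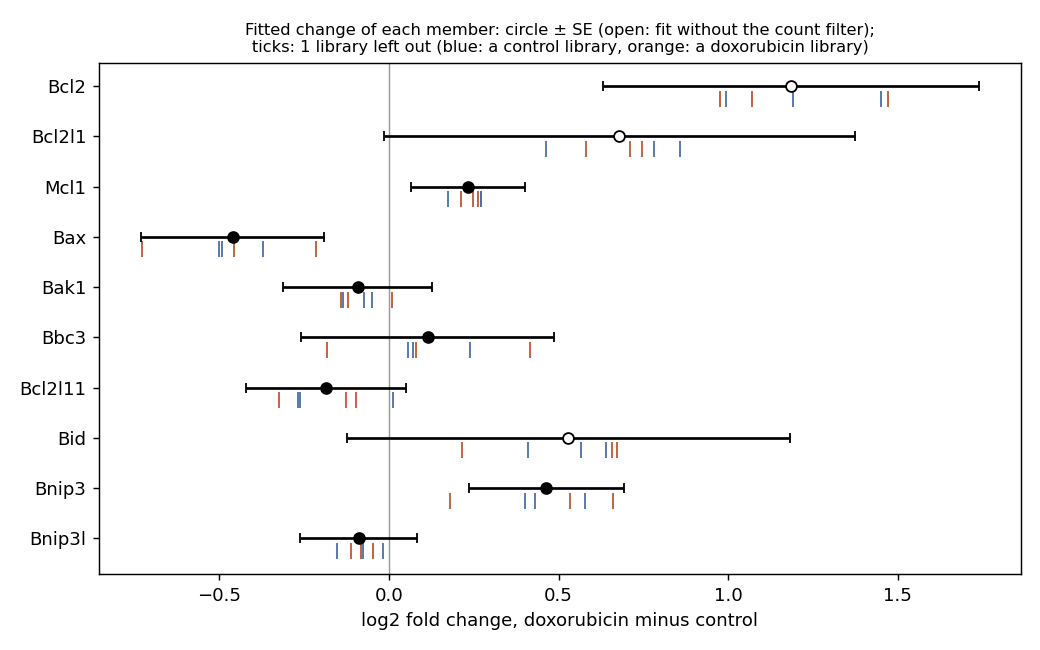
Fitted log2 fold change of each member, doxorubicin minus control (x axis), with its standard error, and the value when each library in turn was left out (ticks). Open circles are the 3 members below the count filter, whose fits used no filter. The Bax tick nearest to 0, at -0.22, and the Bnip3 tick nearest to 0, at 0.18, are those without doxorubicin library 3.

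The BH3-only genes also overlapped between the groups. Bbc3, a p53 target whose protein triggers apoptosis, was 10.7, 8.44 and 8.52 CPM in control and 13.8, 10.6 and 5.60 CPM in the doxorubicin hearts, on 19 to 43 counts per library. Its doxorubicin values ran from below to above the whole control range, and the log2 fold change was 0.11 (SE 0.37, edgeR adjusted p 0.963). Bcl2l11 was 30.2, 29.3 and 42.3 CPM in control and 27.6, 35.9 and 26.5 CPM in the doxorubicin hearts, with a log2 fold change of -0.19 (SE 0.24, edgeR adjusted p 0.877). Only control library 3 stood above the doxorubicin values. Bid, which caspase 8 cleaves to link death receptors to mitochondria, had 4, 5 and 7 counts in control and 7, 7 and 13 in doxorubicin. The ratio of its pooled counts, 16 against 27, was 1.46 with an exact 95% interval of 0.758 to 2.90, and no difference was detectable at this depth.

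Both mitophagy receptors overlapped between the groups too. Bnip3 was 223, 173 and 186 CPM in control and 192, 245 and 365 CPM in the doxorubicin hearts. Doxorubicin libraries 2 and 3 lay above all controls, and doxorubicin library 1 lay among them. The log2 fold change was 0.46 (SE 0.23, unadjusted p 0.0624 and adjusted p 0.624 by edgeR), and it was 0.18 without doxorubicin library 3. Bnip3l, its close relative, was 98.5, 110 and 120 CPM in control and 103, 98.3 and 108 CPM in the doxorubicin hearts. Its doxorubicin values fell within or next to the control range, with a log2 fold change of -0.09 (SE 0.17, edgeR adjusted p 0.918).

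Ratios of counts within a library do not depend on how libraries are scaled. The log2 ratio of Bax to Bcl2, often used as an index of the balance between promotion and restraint of apoptosis, was 4.38, 3.62 and 3.34 in control and 2.93, 2.37 and 1.19 in the doxorubicin hearts. Every doxorubicin heart had a lower ratio than every control heart, with means of 3.78 ± 0.54 and 2.16 ± 0.89 (SD, n = 3) and a difference of -1.61. The ratio rests on the few Bcl2 counts given above, and no test was made because it combines members chosen for this description. The log2 ratio of Bcl2l1 to Bax was -4.09, -4.75 and -4.03 in control and -3.27, -3.40 and -2.60 in the doxorubicin hearts, again without overlap and again on few counts. Both ratios share Bax and each uses a restraining gene already described as separating the groups, so they are not separate observations. The share of other gene pairs whose ratios do not overlap was not determined. The Bnip3 to Bnip3l ratio, on 247 to 1240 counts per gene and library, was 1.18, 0.66 and 0.63 in control and 0.90, 1.32 and 1.76 in the doxorubicin hearts, and the groups overlapped. The log2 ratio of Mcl1 to Bcl2l1 overlapped too, at 6.80 ± 0.56 in control and 6.35 ± 0.20 in doxorubicin (SD, n = 3). Because transcript lengths were not used, a ratio is read only for its change between groups and not as one gene exceeding another.

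**Figure D3:**
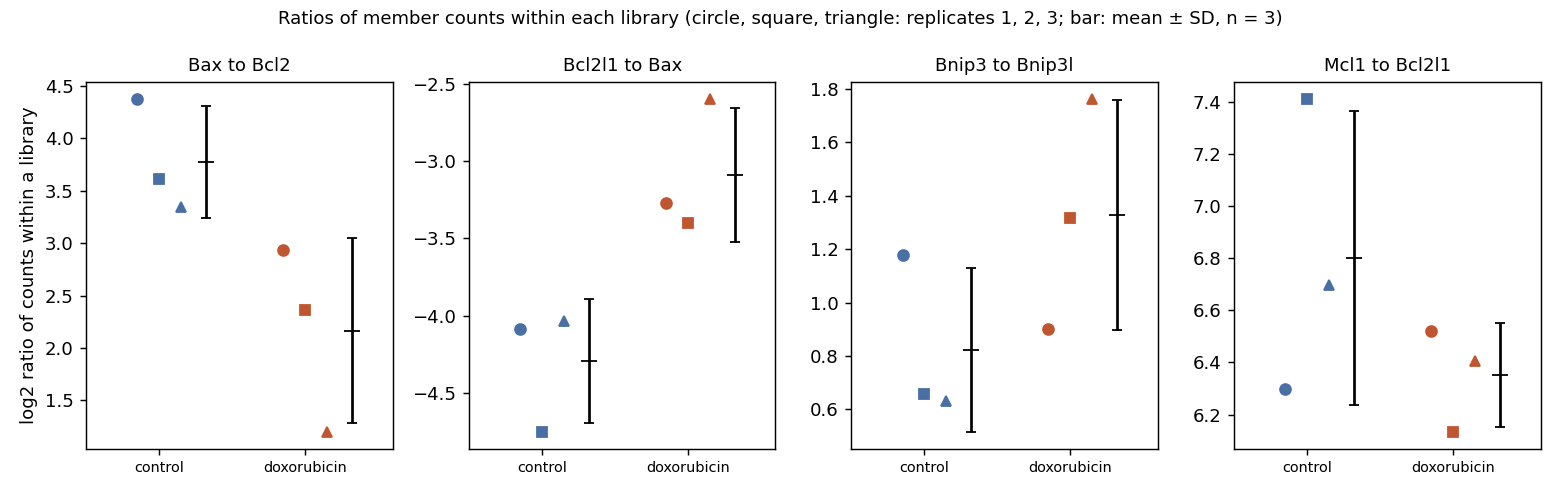
Log2 ratio of the counts of paired members within each library (y axis), 0.5 added to each count, for 3 control (blue) and 3 doxorubicin (orange) hearts, with the mean and SD of each group. Bax to Bcl2 runs from 3.34 to 4.38 in control and from 1.19 to 2.93 in doxorubicin, while Bnip3 to Bnip3l and Mcl1 to Bcl2l1 overlap.

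The rest of the pathway was read from 7 lists of genes that act around these members, 102 symbols in all. Of their 77 tested symbols, edgeR called 0 in either direction at an adjusted p under 0.05, and DESeq2 called 0 as well. At an unadjusted p under 0.05, 3 were higher and 2 lower, against 4% and 4.11% of all tested symbols. Without overlap between the groups, 6.39% of all tested symbols were higher in doxorubicin and 7.06% lower. Single genes described below as separating the groups stand against those shares. Fold changes were above 0 for 35 and below 0 for 42, with a median of -0.03. The 10 symbols Bcl2l10, Xiap, Aifm1, Becn1, Fundc1, Mtch2, Usp9x, Bag1, Itpr1 and Foxo4 were listed at 0 in all 6 libraries. Becn1, Mtch2, Usp9x and Bag1 stood on 2 rows and Itpr1 on 3, and 48.6% of symbols on several rows were at 0, against 24.6% on 1 row. A listed 0 is therefore not read as an absent transcript, since a limit of the counting cannot be told apart from it here.

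Among 5 tested relatives of the family, Bok, an effector-like member, was 13.7, 24.0 and 19.3 CPM in control and 36.3, 36.5 and 28.3 CPM in the doxorubicin hearts. All 3 doxorubicin hearts were above all controls, and the log2 fold change was 0.83 (SE 0.26, unadjusted p 0.00603 and adjusted p 0.353 by edgeR). Bcl2l2 (Bcl-w), a further restraining gene, overlapped between the groups, at 56.2 to 74.8 CPM in control and 111, 64.6 and 62.5 CPM in the doxorubicin hearts. The list median was 0.27.

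Downstream of the mitochondrion, the 15 tested apoptosome and caspase genes had a median log2 fold change of -0.08. Endog, a mitochondrial nuclease, was 186, 106 and 103 CPM in control and 80.6, 89.2 and 92.0 CPM in the doxorubicin hearts, with a log2 fold change of -0.59 (SE 0.23, edgeR adjusted p 0.499). Without control library 1, the Endog value was -0.25. Casp9, the initiator caspase of this route, had a log2 fold change of -0.54 (SE 0.29, edgeR adjusted p 0.673), with overlapping groups. The 9 tested death receptor genes had a median of 0.12, and the adaptor Fadd (log2 fold change 0.62, SE 0.47) and the caspase 8 inhibitor Cflar (0.37, SE 0.29) had the smallest p-values, with groups that overlapped. Fadd was at 1.1 without control library 1 and at 0.22 without doxorubicin library 1. Cflar was at 0.17 without control library 1 and at 0.66 without control library 3, and at 0.67 when its 2 rows in the table were kept apart.

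Of 14 tested mitophagy partners, 10 had fold changes below 0 and the median was -0.10. Pink1, the kinase of the parallel mitophagy route, was 1679, 1045 and 1102 CPM in control and 818, 969 and 1215 CPM in the doxorubicin hearts, and did not separate the groups. Its log2 fold change was -0.35 (SE 0.22), and it was -0.097 without control library 1 and -0.22 without doxorubicin library 1. Ppm1k is a mitochondrial phosphatase known for control of branched-chain amino acid breakdown, and a part of it in mitophagy was not tested. The Ppm1k log2 fold change was the highest of the list, 1.02 (SE 0.33, unadjusted p 0.00911 and adjusted p 0.396 by edgeR), with overlapping groups. It was 0.62 (unadjusted p 0.0622 by edgeR) without doxorubicin library 3 and 0.79 (unadjusted p 0.0864) without control library 1. Outer membrane and pore genes had a median of -0.19, with 8 of 10 below 0. Mff, a fission factor on 3 rows of the table, was lower in every doxorubicin heart, with a log2 fold change of -0.59 (SE 0.23, edgeR adjusted p 0.498). It was -0.58 when the Mff rows were kept apart, and the counted level of Mff may be incomplete. Its unadjusted p of 0.0211 in edgeR became 0.0604 without control library 1 and was highest, at 0.074, without control library 2. Also lower in every doxorubicin heart was the channel gene Vdac1, at -0.33 (SE 0.17, edgeR adjusted p 0.664).

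Partners that stabilise or hold the members had a median of -0.05 over 11 tested genes. The cochaperone gene Bag3 was lower in every doxorubicin heart (log2 fold change -0.27, SE 0.18), and Tmbim6, an endoplasmic reticulum inhibitor of Bax-driven death, was at -0.09 (SE 0.18). Among 14 transcriptional regulators the median was 0.08. Foxo3, a forkhead factor known to act on Bnip3, Bbc3 and Bcl2l11, was 11.8, 10.2 and 8.52 CPM in control and 13.2, 14.0 and 30.9 CPM in the doxorubicin hearts. It was above the controls in each doxorubicin heart and highest in library 3, the library with the highest Bnip3 and the lowest Bbc3 and Bcl2l11. Of all tested symbols, 41.1% had an extreme in that library, and a relation of Foxo3 to these members was not tested. The Foxo3 log2 fold change was 0.94 (SE 0.36, unadjusted p 0.0208 and adjusted p 0.498 by edgeR), and 0.43 without doxorubicin library 3. Stat3, a known activator of Mcl1 and Bcl2l1, was 183 to 220 CPM in control and 244 to 262 CPM in doxorubicin, without overlap, with a log2 fold change of 0.32 (SE 0.17, edgeR adjusted p 0.666).

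**Figure D4:**
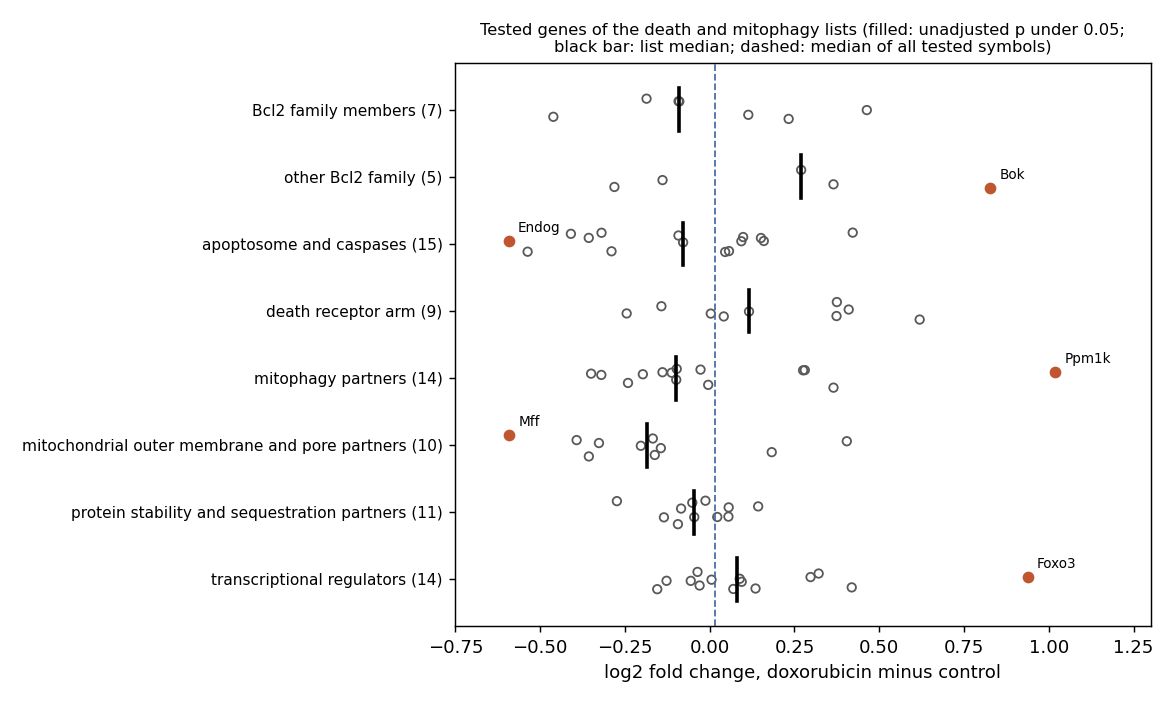
Log2 fold change of each tested gene, doxorubicin minus control (x axis), by list (y axis, number tested in parentheses). Filled points have an unadjusted p under 0.05 (Bok, Ppm1k and Foxo3 higher, Endog and Mff lower), black bars are list medians from -0.19 to 0.27, and the dashed line is the median of all tested symbols, 0.02.

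The genes whose log2 CPM followed Bnip3 most closely over the 6 libraries, out of 7414 compared, were Degs1, C2cd3, Cmip and Zbtb16, with Pearson's r of 0.993, 0.988, 0.974 and 0.968. With 6 libraries and so many genes such values are a description, and 46 genes had an r over 0.9. The shared feature was the highest value in doxorubicin library 3, by unlike amounts. Degs1, the closest match, was 99.6 CPM there and 83.5 to 92.4 CPM in the other libraries. Zbtb16 was 27.1 CPM there and 5.78 to 9.98 CPM in the other libraries.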

How the data were processed

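RNA was measured in 6 heart libraries, 3 control and 3 doxorubicin. Per the file's values, the authors deposited whole, unscaled counts for each feature, made with FastQC, Trimmomatic, STAR and HTSeq on mRatBN7.2 per the submitters' processing notes; versions, annotation, counting mode and strand are not given in the sources used here. The 18473 rows were summed to 17487 symbols. Groups came from the sample titles.

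Counts were tested with edgeR 4.0.16 in R 4.3.3: quasi-likelihood F test, intercept and treatment, TMM factors, robust dispersion, and filterByExpr (minimum count 10, minimum total 15), which kept 9205 symbols. P-values were Benjamini-Hochberg adjusted over those symbols, with a threshold of 0.05. The standard error was the absolute log2 fold change over the square root of F. Log2 CPM used a prior count of 2, and ratios an added count of 0.5. Exact intervals are Clopper-Pearson at 95%. A level of 3 counts was 0.852 to 1.33 CPM over the libraries. Intervals cover counting error only, since the counts of the animals in a group were pooled. The labels name no molecular identifiers for these libraries. The fit was tested on simulated data.

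The members and lists were chosen with earlier results of these data known. Named were all members, the 2 tested genes of smallest p in each of the 7 lists and any past the threshold, the 2 most abundant markers of lists that separated the groups, markers at 0 (1 is not reported here), and the 4 genes of mean CPM at least 10 most like the member of smallest p; listed genes at 0 were named after their values were seen. Alternatives were DESeq2 1.42.0, limma 3.58.1 voom, other scalings, filters and dispersion, repeated rows, the replicate number as a block and each library left out. For Bcl2, Bcl2l1 and Bid the fit without the filter, and its combinations with the other settings, were added after the data were seen. The libraries are separate animals. Replicates differed by more than counting noise (chi-square over its degrees of freedom at least 4.32 for each pair within a group).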

Additional observations from a re-analysis of the deposited data

How the results depend on the processing

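In each of the 19 alternatives 0 Bcl2 family members and 0 pathway genes passed the adjusted threshold. Over all symbols the count was 5, and it became 74 with DESeq2, 61 with no filter, 13 with the replicate block, 1 with a mean CPM of at least 5, 1 with non-robust dispersion, 1 with only symbols on 1 row, and 0 with library size only, with scaling without the 20 most abundant symbols and with voom, where 713, 713 and 740 symbols had an unadjusted p under 0.05; leaving out 1 library gave from 0 to 35. The cause of these moves was not tested. The block changed no call among members or pathway genes. The labels do not state that same-numbered libraries are paired, and the correlations of their deviations were 0.021, -0.19 and -0.056. Scaling by library size moved the median of all symbols to 0.10.

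Directions held for Bcl2 (log2 fold change 0.98 to 1.47), Bcl2l1 (0.46 to 0.86), Mcl1 (0.17 to 0.31), Bax (-0.73 to -0.22), Bnip3 (0.18 to 0.66), Bnip3l (-0.15 to -0.0096) and Bid (0.22 to 0.67) in every alternative that gave them a value. Others reversed when 1 library was left out: without doxorubicin library 1, Bak1 became 0.0076, Bbc3 -0.18 and Bcl2l2 -0.0445; without control library 3, Bcl2l11 became 0.011; and without control library 1, Tmbim6 became 0.0037. Leaving out each library moved Bak1 from -0.14 to 0.0076, Bbc3 from -0.18 to 0.41 and Bcl2l11 from -0.32 to 0.011, Bcl2l2 from -0.0445 to 0.43 and Tmbim6 from -0.17 to 0.0037. The Bax to Bcl2 difference ran from -2.0 to -1.13. Depth limits Bcl2, Bcl2l1 and Bid most, at 2 to 22 counts per library.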

Other observations

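Doxorubicin library 3 held the highest or lowest level of 6 of the 10 members: Bcl2, Bnip3 and Bid were highest there, and Bax, Bbc3 and Bcl2l11 were lowest. Of all tested symbols, 41.1% had their highest or lowest level in that library, a share that leaves out Bcl2 and Bid, which were below the count filter. Control library 1, the library that stood apart on the first principal component, at -43.3 against -4.83 to 26.6 for the others, held an extreme of 4 members, against 54.3% of all tested symbols. Bcl2 and Bid are again among those members.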
